A study of Mus musculus with 23 samples.

Results

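The experiment described here compared the brain transcriptome of wild-type mice given DCS with that of wild-type mice given vehicle. It comprises 11 of the 23 poly(A) RNA libraries of the study, 5 from wild-type (WT) mice labelled as treated with DCS and 6 from WT mice labelled as vehicle. The libraries were chosen by genotype and treatment label alone, and 17256 of the 18848 genes in the table, those averaging 10 or more normalised reads over the 23 libraries, were tested. All mice of both groups were male C57BL/6J at postnatal day 17, and the tissue is labelled as brain with no region named. The other 12 libraries came from male C57BL/6J mice of the same age heterozygous (HT) for the Grin2b C456Y change named in the study's title, 6 with DCS and 6 with vehicle, and were used here for the spread between libraries and for 1 test of difference. The labels give neither the dose, route and timing of DCS nor whether each library was a mouse of its own. The p-values below therefore measure the spread between these libraries, part of which may be technical.

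DCS commonly stands for D-cycloserine, although the labels do not spell it out. D-cycloserine is an antibiotic that partially activates the NMDA receptor through its glycine site. This receptor is the glutamate-gated calcium channel that opens only when glutamate and a co-agonist, glycine or D-serine, are bound together. Calcium entering through the receptor activates kinases and phosphatases at the synapse and a transient programme of activity-induced genes in the nucleus. D-cycloserine also reacts with pyridoxal phosphate, the cofactor of many aminotransferases and decarboxylases. The comparison asks what the compound alone did to gene expression in brain without the mutation.

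The markers of the labelled tissue were present in all 11 libraries. Slc17a7, the vesicular glutamate transporter of cortical excitatory neurons, ranged from 38970 to 42610 normalised reads, and Mbp of myelin from 210800 to 246800. Cerebellar Pcp2 (1433 to 1889) and striatal Drd1 (644 to 764) were detected in every library. The microglial receptor Cx3cr1 varied more, from 343 to 771, and so did Ttr of the choroid plexus, from 6483 to 14020. Library totals after the authors' scaling lay between 32700000 and 33500000 normalised reads. A pair of libraries stood apart from the rest: on the first principal component, which held 17.71% of the variance, WT DCS 2 lay at 29.4 and WT vehicle 2 at 32.6, while the other 9 lay between -13.4 and 5.5. For some of the lists below, values are also given without them.

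No gene passed the threshold. Of 17256 genes tested with limma, 0 (0%) had a Benjamini-Hochberg adjusted p below 0.05, and 497 (2.88%) had an unadjusted p below 0.05, against the 863 that uniformly distributed p-values would give. Of these 497 genes, 217 had the higher mean with DCS and 280 the lower mean. The smallest adjusted p was 0.888, for Nrn1l. The median log2 difference over all genes was 0.0003, and the median size of a difference, whatever its sign, was 0.045. In 57 genes (0.33%) the DCS and vehicle libraries did not overlap, 21 with DCS higher and 36 with DCS lower. Of all ways to choose 5 of 11 libraries, 0.4329% separate completely, so the share of such genes was no larger than random labels would give.

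What the libraries could have shown depends on the level of the gene. The 95% interval of the DCS difference lay entirely within 1.25-fold in either direction for 11809 genes (68.43%), within 1.5-fold for 14690 (85.13%) and within 2-fold for 16677 (96.64%). For the 6534 genes averaging 1000 or more normalised reads, 98.42% of the intervals lay within 1.25-fold. For the 4415 genes averaging under 100 the share within 1.25-fold was 4.507%, and 87.59% lay within 2-fold. A difference of 2-fold in an abundant transcript therefore lay outside nearly all intervals, whereas for scarce transcripts the interval often included a difference of 1.5-fold. Of the 276 genes whose log2 difference exceeded 0.5 in either direction, 262 had a mean under 100.

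**Figure D1:**
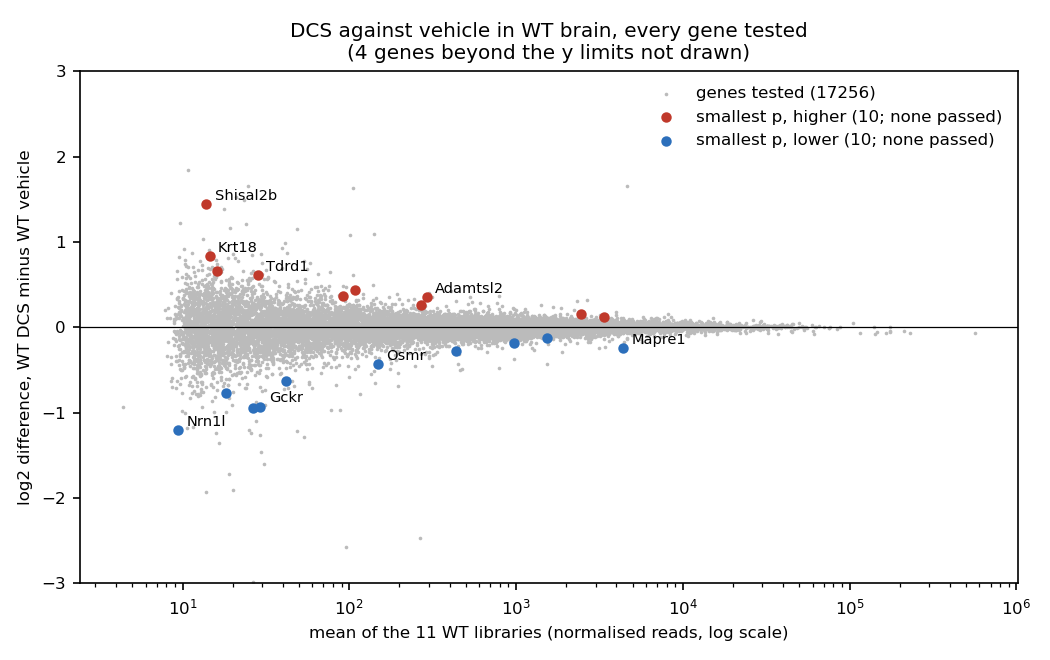
Log2 difference between WT DCS and WT vehicle (y axis) against the mean of the 11 WT libraries in normalised reads (x axis, log scale) for each of the 17256 genes tested, with 4 genes beyond the y limits left out. Red and blue points are the 10 genes of smallest p in each direction, none of which passed the threshold; the scatter narrows as the mean increases.

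The response of WT brain was also set against that of HT brain in the same fit. For this difference of differences, 0 of 17256 genes (0%) passed the threshold with limma, 756 (4.381%) had an unadjusted p below 0.05, and the smallest adjusted p was 0.984. No gene named below can therefore be said to respond to DCS in one genotype and not in the other.

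No NMDA receptor subunit transcript differed beyond the spread between libraries. All 7 NMDA receptor subunit genes were tested, none had an unadjusted p below 0.05, and their median log2 difference was 0.021 with 5 higher and 2 lower. That median ran from -0.0075 (without WT DCS 4) to 0.045 (without WT DCS 2) as single libraries were left out. Grin1 encodes the obligatory subunit that carries the glycine site. It measured 21000, 19740, 21230, 20620 and 21260 normalised reads in the 5 DCS libraries and 20040 to 22210 (median 21000) in the 6 vehicle libraries. Here and below, WT means are given for DCS against vehicle, ± SD over 5 and 6 libraries, in normalised reads. HT means are given ± SD over 6 libraries in each group. The means of Grin1 were 20770 ± 630.2 against 21030 ± 859, and the log2 difference was -0.018 (95% interval -0.087 to 0.052), so a change of more than about 1.25-fold lay outside the interval. Grin2b, the glutamate-binding subunit that dominates early postnatal receptors, measured 17350, 15210, 20200, 19370 and 21720 with DCS and 16320 to 19270 (median 18040) with vehicle. Its DCS libraries spread more widely than its vehicle libraries, 18770 ± 2543 against 17910 ± 1189, and enclosed them on both sides, with a log2 difference of 0.059 (95% interval -0.13 to 0.24).

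Grin2a, which joins the receptor as the forebrain matures, had means of 5805 ± 161 against 5649 ± 252 and a log2 difference of 0.040 (95% interval -0.081 to 0.16). WT DCS 2 held the lowest of its DCS values, 5519, and the other 4 lay between 5855 and 5907. Grin2c, the subunit of cerebellar granule cells and astrocytes, had 3647 ± 288 against 3548 ± 198, and Grin2d, found in interneurons and the brainstem, had 1387 ± 135 against 1379 ± 86.7. Grin3a measured 2552 ± 185 against 2515 ± 169. The sparsest subunit, Grin3b, measured 23.2, 27.7, 44.8, 24.1 and 24.8 with DCS and 21.1 to 35.7 (median 32) with vehicle, and its interval of -0.59 to 0.44 on the log2 scale was the widest of the 7. Each subunit's DCS and vehicle libraries overlapped. The signs of Grin1, Grin2d and Grin3a changed under some of the alternative settings, so no direction is given for them.

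The next list holds genes that make, move and degrade glycine and D-serine, together with 5 genes of inhibitory glycine receptors and their scaffold (Glra1, Glra2, Glra3, Glrb and Gphn). Of its 25 genes 24 were tested, 10 with the higher and 14 with the lower mean under DCS, none at an unadjusted p below 0.05, with a median log2 difference of -0.0057. Srr, the serine racemase that makes D-serine, measured 3071, 2880, 2949, 2997 and 2984 with DCS and 3030 to 3167 (median 3096) with vehicle. The 5 DCS libraries were all below the vehicle mean and only WT DCS 1 was inside the vehicle range, with a log2 difference of -0.059 (95% interval -0.13 to 0.015). Dao, the peroxisomal oxidase that degrades D-serine, measured 115, 152, 149, 119 and 116 with DCS and 94.2 to 138 (median 111) with vehicle. Its log2 difference was 0.21 (95% interval -0.050 to 0.48) in WT and -0.37 in HT, where the means were 112 ± 22 and 143 ± 10.01 with DCS and vehicle. The difference between the genotypes, 0.59 (95% interval 0.22 to 0.95), had a limma adjusted p of 0.984.

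Glycine is cleared by transporters and by the glycine cleavage system. Gldc, its decarboxylase, had 623 ± 32.2 against 589 ± 20.2 (log2 difference 0.081, 95% interval -0.041 to 0.20), with WT DCS 1 at 579.9 below the vehicle mean and the other 4 DCS libraries above it. The neuronal glycine and D-serine exchanger Slc7a10 had 1009 ± 53.6 against 953 ± 57.7 (log2 difference 0.082, 95% interval -0.046 to 0.21), and 4 of 5 DCS libraries lay above the vehicle mean. The glial glycine transporter Slc6a9 had 2590 ± 214 against 2508 ± 55.8 (log2 difference 0.042, 95% interval -0.072 to 0.16). Slc6a5, the glycine transporter of inhibitory neurons in the hindbrain and spinal cord, was more variable, 1056 ± 159 against 1187 ± 205 (log2 difference -0.16, 95% interval -0.68 to 0.36). Phgdh, the first enzyme of serine synthesis, had 1588 ± 104 against 1589 ± 57.8.

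**Figure D2:**
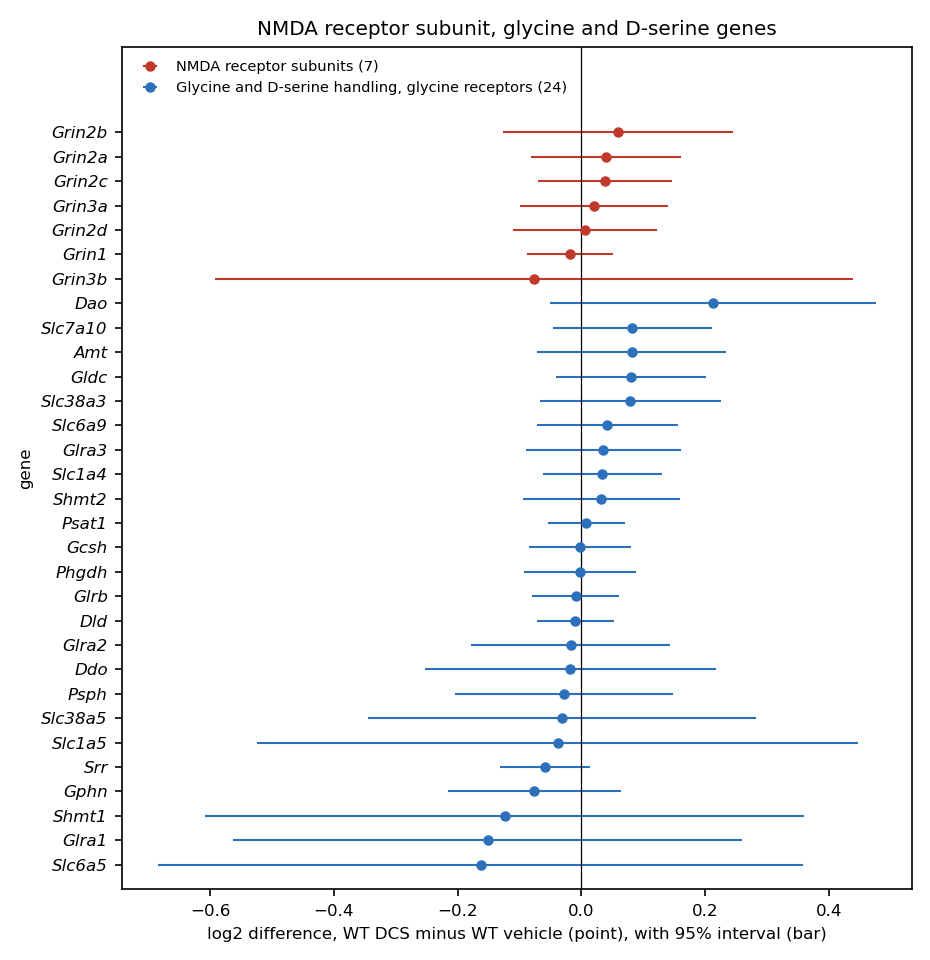
Log2 difference between WT DCS and WT vehicle (x axis, point) with its 95% interval (bar) for 7 NMDA receptor subunit genes (red) and 24 genes of glycine and D-serine handling and of glycine receptors (blue), 1 gene per line. Every interval crosses 0, and the widest belong to genes with few reads such as Grin3b, Shmt1 and Slc1a5 or with variable levels such as Slc6a5.

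Among enzymes that use or maintain pyridoxal phosphate, 26 of 28 were tested, 15 higher and 11 lower, with a median log2 difference of 0.0092. The 2 members with the smallest p, Cth and Kyat3, had the lower mean, and Bcat2, the next by p, had the higher mean. At an unadjusted p below 0.05 there were 2 lower and 0 higher, 7.692% of the list against 2.88% of all genes. A count of 2 genes is too small to set the list apart from that background. Cth, the cystathionine gamma-lyase that makes cysteine, measured 55.9, 64.2, 77, 101 and 50.7 with DCS and 83.8 to 113 (median 89.9) with vehicle. It lay below the vehicle range in 4 of 5 DCS libraries and inside it in WT DCS 4, with a log2 difference of -0.46 (95% interval -0.77 to -0.14). HT means were 71.2 ± 8.77 and 97.7 ± 20.8 with DCS and vehicle, a log2 difference of -0.44, and the difference between the genotypes was -0.023 (95% interval -0.46 to 0.41). Neither the WT value (limma, unadjusted p = 0.00601, adjusted p = 1) nor the difference between the genotypes passed the threshold.

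Kyat3, an aminotransferase that makes kynurenic acid, an endogenous blocker of the glycine site, measured 135, 128, 124, 122 and 164 with DCS and 138 to 167 (median 155) with vehicle. This was the other gene at an unadjusted p below 0.05: WT DCS 5 lay within the vehicle range and the other 4 below it (log2 difference -0.20, 95% interval -0.40 to -0.0049), whereas in HT the DCS mean was the higher one, 156 ± 21.5 and 133 ± 9.57. Csad, the decarboxylase of taurine synthesis, had 603 ± 59.1 against 678 ± 53.4 (log2 difference -0.17, 95% interval -0.35 to 0.0091), with all 5 DCS libraries below the vehicle mean. Bcat2, the mitochondrial aminotransferase of branched-chain amino acids, lay above its vehicle mean in all 5 DCS libraries, 341, 357, 371, 348 and 363, although WT vehicle 5 held the highest value of all, 394. The GABA-synthesising decarboxylases Gad1 (11220 ± 544 against 10730 ± 336) and Gad2 (8019 ± 436 against 7957 ± 319) were within 1.25-fold by their intervals, -0.020 to 0.15 and -0.066 to 0.087 on the log2 scale. The list mean of log2 values was 10.65 ± 0.012 with DCS and 10.67 ± 0.015 with vehicle, and the 5 DCS libraries were all below the vehicle mean, with WT DCS 5 inside the vehicle range. The list's median and its mean differed in sign, 0.0092 against -0.025, and the median itself turned to -0.0012 without WT DCS 1 and to -0.0003 without WT vehicle 2.

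The other receptors and scaffolds of the excitatory synapse showed small differences. Of 21 AMPA receptor and auxiliary subunit genes 13 were higher and 8 lower, none at an unadjusted p below 0.05 (median 0.0059). Gria1, a pore-forming subunit, had 13090 ± 263 against 12940 ± 216, and its interval of -0.032 to 0.066 on the log2 scale was among the narrow ones. Gria4 had 5581 ± 120.0 against 5374 ± 165 with all 5 DCS libraries above the vehicle mean, and Shisa7, an auxiliary protein, had 5343 ± 176 against 5553 ± 142 with 4 of 5 below it. Of 20 postsynaptic scaffold genes 10 were higher and 10 lower (median 0.0004). Dlg4, which encodes PSD-95, had 26260 ± 1153 against 26200 ± 521 and a log2 difference of 0.0022 (95% interval -0.050 to 0.055). Leaving out single libraries turned the sign of the AMPA receptor median (-0.0016 without WT DCS 3), of the scaffold median (-0.0097 without WT DCS 1) and of the glycine and D-serine list's median (0.012 without WT vehicle 2), so none of these lists is given a direction.

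Among 19 kainate, delta and metabotropic receptor genes and their partners, 11 were higher and 8 lower (median 0.014), and 1 (5.263%, against 2.88% of all genes) had an unadjusted p below 0.05. A count of 1 gene is close to that background. The gene was Grik4, a high-affinity kainate receptor subunit. It measured 867, 793, 929, 867 and 850.4 with DCS and 737 to 829.9 (median 797) with vehicle. Only WT DCS 2 fell inside the vehicle range, and the log2 difference was 0.12 (95% interval 0.022 to 0.21) with a limma adjusted p of 1 (unadjusted p = 0.0178). Grm4, the presynaptic metabotropic receptor of cerebellar granule cells, had 6657 ± 377 against 6185 ± 231 with all 5 DCS libraries above the vehicle mean, and HT means of 6225 ± 587 and 6634 ± 491 in the opposite order. The median of the list was -0.0084 without WT DCS 4. It was -0.020 among libraries numbered 1 to 3 and 0.071 among those numbered 4 to 6, so no direction is given for the list.

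Of 28 genes of calcium-dependent signalling below the receptor 8 were higher and 20 lower, none at an unadjusted p below 0.05 (median -0.0081). Camk2a, the synaptic calcium/calmodulin kinase, had 54960 ± 2706 against 55400 ± 1397 (log2 difference -0.013, 95% interval -0.099 to 0.074). Creb1, the activity-regulated transcription factor, measured 1696, 1657, 1682, 1897 and 1819 with DCS and 1610 to 1699 (median 1644) with vehicle. Each DCS library exceeded the vehicle mean, and WT DCS 4 and WT DCS 5 lay above the whole vehicle range (log2 difference 0.085, 95% interval -0.019 to 0.19). Mapk3, the ERK1 kinase, had 5239 ± 213 against 5473 ± 208, and Ppp1r1b, the striatal phosphatase inhibitor DARPP-32, had 6165 ± 553 against 6490 ± 384, each with 4 of 5 DCS libraries below the vehicle mean. The median of the list was 0.0037 without WT DCS 2 (15 of 28 higher) and 0.0021 without both libraries that stood apart (16 of 28 higher). No direction is therefore given for the list. In HT brain 20 of the 28 genes had the higher mean with DCS, with a median of 0.011.

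Of 15 GABA-A receptor subunit genes 11 were higher and 4 lower (median 0.026), and 1 (6.667%, against 2.88% of all genes) had an unadjusted p below 0.05. Gabra2, an alpha subunit of forebrain synaptic receptors, measured 1677, 1515, 1546, 1513 and 1509 with DCS and 1232 to 1534 (median 1422) with vehicle. Its log2 difference was 0.15 (95% interval 0.014 to 0.28) with a limma adjusted p of 1 (unadjusted p = 0.0318), WT DCS 1 being the highest library and all 5 lying above the vehicle mean. The median of the list was 0.0036 without WT DCS 5 and 0.035 without both libraries that stood apart (13 of 15 higher). Among libraries numbered 1 to 3 it was -0.0037 (7 of 15 higher), and among those numbered 4 to 6 it was 0.030. No direction is therefore given for the GABA-A list.

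Activity-induced early genes did not separate the groups. Of 43 listed genes 42 were tested, 24 higher and 18 lower, none at an unadjusted p below 0.05, with a median log2 difference of 0.017. These transcripts varied several-fold between libraries of the same group. Fos, the first-described immediate early gene, measured 1573, 1515, 843, 622 and 1251 with DCS and 390.4 to 1975 (median 1325) with vehicle. Arc, whose product acts at active synapses, measured 4831, 5953, 2750, 2385 and 4665 with DCS and 1611 to 6142 (median 3977) with vehicle. In both genes WT DCS 3 and WT DCS 4 were the low DCS libraries, and WT vehicle 4, at 390.4 for Fos and 1611 for Arc, was the lowest of all 11. The intervals were correspondingly wide, -0.90 to 0.81 for Fos and -0.75 to 0.90 for Arc on the log2 scale, so a 1.5-fold change in either direction lay inside them.

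Bdnf, the neurotrophin induced by calcium entry, measured 666, 786, 651, 677 and 697 with DCS and 552 to 744 (median 645) with vehicle, with a log2 difference of 0.098 (95% interval -0.060 to 0.26). Crem, a cAMP-responsive repressor, lay above its vehicle mean in all 5 DCS libraries, 342 ± 27.2 against 311 ± 15.2 (log2 difference 0.13, 95% interval -0.046 to 0.32). Pcsk1, a prohormone convertase, did so too, 1267 ± 59.9 against 1203 ± 71.3 (log2 difference 0.076, 95% interval -0.030 to 0.18), and Gadd45g, 474 ± 29.6 against 442 ± 56.5. Maff, a small Maf transcription factor, measured 35.1, 53.8, 36, 31.2 and 32.7 with DCS and 23.6 to 35.7 (median 31.3) with vehicle. WT DCS 2 lay far above the vehicle range and WT DCS 3 just above it.

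The list mean of log2 values was 9.96, 10.05, 9.63, 9.62 and 9.93 in the 5 DCS libraries and 9.98, 9.86, 9.80, 9.42, 9.73 and 10.10 in the 6 vehicle libraries, so both extremes were vehicle libraries. Leaving out single libraries moved the list's median between -0.027 (without WT DCS 2) and 0.077 (without WT vehicle 6), and it was -0.015 without both libraries that stood apart. In HT brain 37 of the 42 genes had the lower mean with DCS, with a median of -0.13, and the difference between the genotypes passed the threshold for 0 of 42.

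The cAMP response element, through which CREB acts on several of these genes, was looked for in the RefSeq promoters (GRCm38.p6, 250 bases before to 50 bases after the start site) as the letters TGACGTCA, which read the same on both strands. Counted by gene, it was present in 549 of the 27025 genes with a promoter entry (2.031%) and in 417 of the 12385 of them that were tested here (3.367%). Of the 30 early genes with a promoter entry 5 held it (16.67%), Btg2, Dusp1, Maff, Pcsk1 and Plk2. Of these 5 genes 2 had the higher and 3 the lower mean with DCS. The windows below show it for the pair of them with the higher mean, with the element in capitals, at chr15:79347466-79347519 for Maff and chr13:75089754-75089811 for Pcsk1, both on the plus strand. The element starts 29 bases before the start site in Maff and 78 bases before it in Pcsk1. A match is a description of the letters and not evidence that a factor bound there.
Maff: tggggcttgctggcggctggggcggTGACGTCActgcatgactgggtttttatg
Pcsk1: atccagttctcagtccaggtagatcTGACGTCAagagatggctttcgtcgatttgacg

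Genes induced by interferon, together with those of antigen presentation, leaned lower with DCS. Of 36 listed genes 35 were tested, 29 with the lower and 6 with the higher mean, and their median log2 difference of -0.12 compares with 0.0003 over all genes. None passed the threshold, and 2 (5.714%), Irf1 and Irf7, had an unadjusted p below 0.05 against 2.88% of all genes. In whole tissue, fewer cells of a type and less RNA per cell cannot be told apart. These genes were chosen with earlier results of the same libraries known, so their shared direction is not independent support.

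Irf1, a transcription factor induced by interferon gamma, measured 87.8, 93.1, 108, 82.7 and 98.7 with DCS and 100.2 to 204 (median 109) with vehicle. All 5 DCS libraries lay below the vehicle mean of 125, but WT vehicle 3 alone reached 204 and 1 DCS library lay inside the vehicle range. The log2 difference was -0.36 (95% interval -0.67 to -0.053) in WT, and HT means were 119.8 ± 26.2 and 112 ± 6.36 with DCS and vehicle, in the opposite order. Irf7, the interferon-induced factor that amplifies the type I response, measured 43.5, 41.7, 39.9, 32.3 and 47.4 with DCS and 36 to 75 (median 58.4) with vehicle. The DCS libraries were all below the vehicle mean, 4 of them inside the vehicle range, with a log2 difference of -0.45 (95% interval -0.84 to -0.065) in WT and -0.42 in HT, where the means were 36.3 ± 10.1 and 47.8 ± 8.11. Bst2, which tethers budding enveloped viruses, measured 56.2, 63, 76.4, 37.2 and 43.6 with DCS and 48.4 to 108 (median 64.8) with vehicle, and 2 of 5 DCS libraries lay below the vehicle range (log2 difference -0.34, 95% interval -0.74 to 0.070). Irf9, the DNA-binding subunit of the complex that answers type I interferon, had 345 ± 29.4 against 387 ± 50.7 (log2 difference -0.16, 95% interval -0.37 to 0.049).

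Among the antigen-presenting members, H2-K1, a classical class I heavy chain, had 408 ± 87.7 against 439 ± 49.3 (log2 difference -0.13, 95% interval -0.38 to 0.13), H2-D1 had 1362 ± 73.5 against 1370 ± 47.8 (log2 difference -0.010, 95% interval -0.099 to 0.079), and their light chain B2m had 1065 ± 131 against 1111 ± 98.3 (log2 difference -0.065, 95% interval -0.22 to 0.093). Class I heavy-chain genes are near-identical to each other, and how their shared reads were divided is uncertain. Dhx58, a cytosolic RNA sensor of the RIG-I family, went the other way, 43.2 ± 17.9 against 32.5 ± 7.72, with WT DCS 2 at 66.6 the highest library. Nlrc5, the activator of class I genes, had the lowest difference of the list, -0.48 (95% interval -1.65 to 0.70), and its vehicle values ran from 6.11 to 121 with WT vehicle 3 again the highest.

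By library, the list mean of log2 values was 6.77, 6.91, 6.79, 6.53 and 6.78 with DCS and 7.05, 6.85, 7.28, 6.53, 6.83 and 6.81 with vehicle. WT vehicle 3 was the highest of the 11 and WT vehicle 4 the lowest, and the groups overlapped. The list's median was -0.048 without WT vehicle 3 (26 of 35 lower), -0.078 without WT vehicle 1 (27 of 35 lower) and -0.026 without WT DCS 4 (24 of 35 lower), the library with the lowest DCS value. It was -0.15 without both libraries that stood apart (33 of 35 lower). Among libraries numbered 1 to 3 alone the median was -0.18, and among those numbered 4 to 6 it was -0.048 with 23 of 35 lower. In HT brain 22 of the 35 genes were lower with DCS, with a median of -0.064.

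The interferon-stimulated response element was searched as the letters GAAANNGAAA and, for the other strand, TTTCNNTTTC, where N is any base. Counted by gene, it was found in 1079 of the 27025 genes with a RefSeq promoter entry (3.993%) and in 446 of the 12385 of them that were tested here (3.601%). Of the 27 tested list members with a promoter entry 12 held it (44.44%). All 12 of these members had the lower mean with DCS, with a median log2 difference of -0.14, and 12 of the 15 members without the letters were also lower, with a median of -0.13. Bst2 and Stat2 are shown because they are the members with the element that had the smallest p, with the element in capitals. The Bst2 window, chr8:71537562-71537627 on the minus strand, holds 2 overlapping matches, and the Stat2 window, chr10:128270251-128270310 on the plus strand, holds 1 match in the reverse orientation.
Bst2: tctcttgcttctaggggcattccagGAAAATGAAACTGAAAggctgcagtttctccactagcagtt
Stat2: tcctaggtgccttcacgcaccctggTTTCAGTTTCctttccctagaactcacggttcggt

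Microglial genes were balanced between the groups. Of 20 genes 10 were higher and 10 lower, with a median of -0.0006, and all 20 were tested. The list mean was 7.91, 8.64, 8.04, 7.65 and 7.95 with DCS and 8.21, 8.52, 7.67, 7.71, 7.89 and 8.11 with vehicle, and WT DCS 2 and WT vehicle 2, the libraries that stood apart, held the highest values. Fcrls measured 474 in WT DCS 2 and 448 in WT vehicle 2, against 222 to 291 in the other 4 DCS and 183 to 280.3 in the other 5 vehicle libraries. WT vehicle 3, highest for interferon genes, had a low microglial mean. Leaving out WT DCS 2 alone gave a microglial median of -0.16, leaving out WT DCS 4 alone gave 0.10, and leaving out both libraries numbered 2 gave -0.062 (14 of 20 lower), so no direction is given for the list. The part of microglia in the interferon values was not tested.

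**Figure D3:**
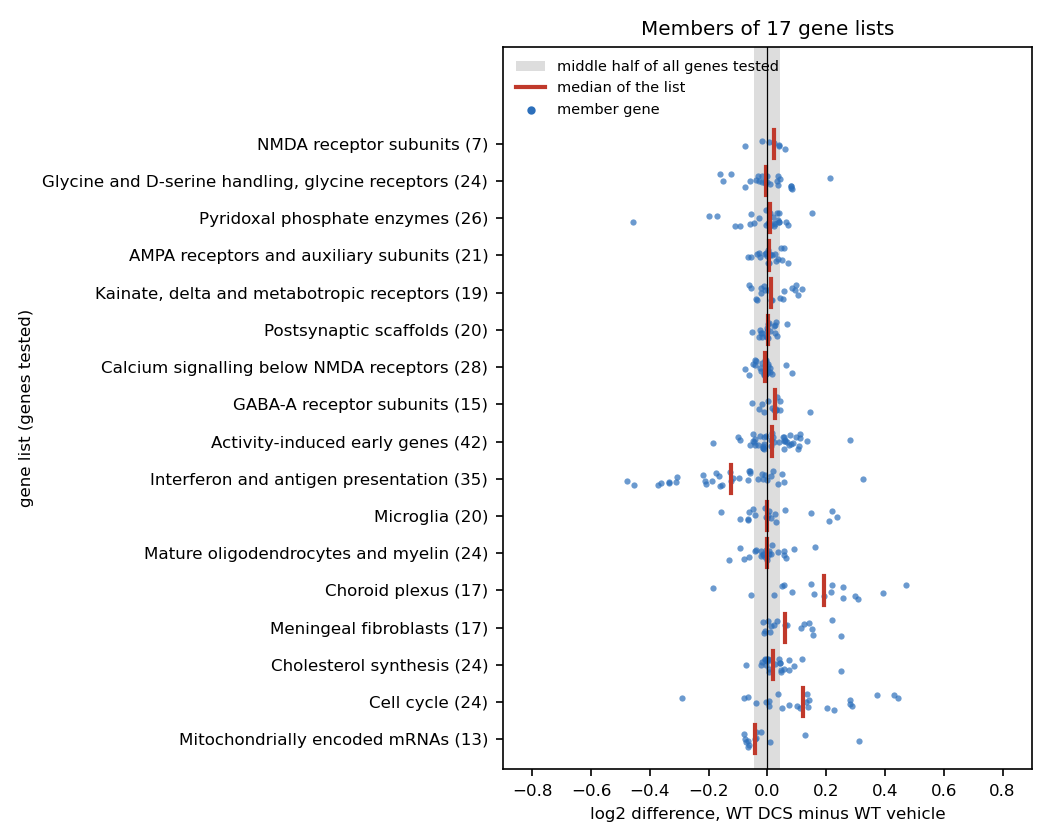
Log2 difference between WT DCS and WT vehicle (x axis) of each tested member (blue points) of 17 gene lists (y axis, number of genes tested in parentheses), with each list's median (red bar) and the range between the lower and upper quartile of all genes tested (grey band). The median is -0.12 for the interferon list, 0.19 for choroid plexus and 0.12 for cell cycle. These lists have the lowest levels of those drawn (list means of log2 values with DCS 6.76, 7.04 and 6.12), where single genes scatter more. The band describes single genes of all levels and is no test of a list.

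Choroid plexus genes leaned higher with DCS, and much of that came from 1 library. The choroid plexus is the epithelium that secretes cerebrospinal fluid, and of its 17 listed genes 15 had the higher mean, with a median log2 difference of 0.19. Folr1, the folate receptor that carries folate into the fluid, measured 50.7, 104, 59.3, 55.8 and 107 with DCS and 43.1 to 64.8 (median 51.2) with vehicle. WT DCS 2 and WT DCS 5 lay above the vehicle range and the other 3 within it, and the log2 difference was 0.47 (95% interval 0.048 to 0.90). Kl, which encodes klotho, measured 190.3, 310.1, 208, 229 and 209 with DCS and 170.4 to 224 (median 206) with vehicle, where WT DCS 2 was highest and WT DCS 4 just above the vehicle range. Ttr, the thyroxine carrier transthyretin, measured 6483, 14020, 7676, 9040 and 8387 with DCS and 7372 to 9736 (median 8048) with vehicle, so that the lowest and the highest of the 11 libraries were both DCS libraries. Prlr (166 ± 29.6 against 189 ± 33.2) and Otx2 (167 ± 29.9 against 172 ± 9.31) were the members with the lower mean.

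The list mean was 6.79, 7.47, 6.87, 6.97 and 7.10 in the DCS libraries and lay between 6.83 and 6.92 in the vehicle libraries. Without WT DCS 2 the list's median was 0.078 (12 of 17 higher), and without both libraries that stood apart it was 0.0051 (10 of 17 higher). In HT brain 13 of 17 were lower with DCS, with a median of -0.13, and the difference between the genotypes passed the threshold for 0 of 17. Folr1 had HT means of 52.7 ± 10.9 and 71 ± 18.4 with DCS and vehicle, and the difference between the genotypes for this gene was 0.88 (95% interval 0.29 to 1.46) with a limma adjusted p of 0.984 (unadjusted p = 0.00484).

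Genes of meningeal fibroblasts, which cover the brain surface, were higher in 14 of 17 cases with a median of 0.059. Col1a1, a fibrillar collagen chain, measured 1524, 827, 740.5, 725 and 776 with DCS and 566 to 971 (median 754) with vehicle. WT DCS 1 alone stood above the vehicle range. Aldh1a2, the retinoic acid synthase of the meninges, had 191 ± 27.9 against 176 ± 25.4, and its highest library was WT DCS 5. WT vehicle 3 had the lowest list mean, 8.29 against 8.55 to 8.89 in the other 10 libraries. Leaving out single libraries moved the median between -0.0052 (without WT vehicle 3, 10 of the 17 genes lower) and 0.10 (without WT vehicle 5), it was 0.051 without both libraries that stood apart (10 of 17 higher), and among libraries numbered 4 to 6 it was -0.043, so the direction depended on WT vehicle 3 and on the numbers used.

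Genes of mature oligodendrocytes and myelin were balanced, 10 of 24 higher, with a median of -0.0032 (-0.017 without both libraries that stood apart). Sox10, the transcription factor of the oligodendrocyte lineage, measured 2602, 2649, 2377, 2518 and 2457 with DCS and 2587 to 2814 (median 2685) with vehicle. All 5 DCS libraries lay below the vehicle mean and 3 of them below the vehicle range, with a log2 difference of -0.094 (95% interval -0.18 to -0.0087) in WT and -0.081 in HT. Mbp, the myelin basic protein gene, had 225300 ± 16270 against 235200 ± 11580 (log2 difference -0.063, 95% interval -0.23 to 0.099), with 2 of 5 DCS libraries above the vehicle mean. In HT brain 22 of the 24 genes were lower with DCS, with a median of -0.13, and the difference between the genotypes passed the threshold for 0 of them.

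Cholesterol synthesis genes differed by little but with little spread. Of 24 genes 17 were higher and 7 lower, with a median of 0.018, and 2 (8.333%, against 2.88% of all genes) had an unadjusted p below 0.05, Ebp and Dhcr7, both higher. The list mean was 11.021, 11.028, 11.028, 11.020 and 11.003 in the DCS libraries and 10.970, 10.977, 11.015, 11.024, 10.972 and 10.963 in the vehicle libraries. Every DCS library exceeded the vehicle mean of 10.987, and WT vehicle 3 and WT vehicle 4 lay within the range of the DCS libraries. Ebp, the sterol isomerase of the late pathway, measured 776, 692, 681, 778 and 794 with DCS and 496 to 675 (median 663) with vehicle. It was the 1 member whose groups did not overlap, where 0.33% of all genes did not, and its log2 difference was 0.25 (95% interval 0.060 to 0.44) in WT and 0.0018 in HT.

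The other genes of the list differed by less than Ebp. Dhcr7, the other member with an unadjusted p below 0.05, had 1710 ± 88.6 against 1577 ± 66.6 (log2 difference 0.12). All 5 of its DCS libraries lay above the vehicle mean. Mvd, which makes isopentenyl diphosphate, had 1037 ± 33.7 against 974 ± 44.5 with all 5 DCS libraries above the vehicle mean, and Hmgcs1, an early enzyme, had 15420 ± 626 against 14820 ± 526 with 3 of 5 above it. Srebf2, the transcription factor that drives the pathway, had 7503 ± 309 against 7275 ± 241, and Sqle, the squalene epoxidase, had 3183 ± 153 against 3199 ± 67.6. Leaving out any 1 WT library kept the list's median between 0.015 (without WT DCS 1) and 0.032 (without WT DCS 5), it was 0.0081 without both libraries that stood apart, and in HT it was -0.0005.

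**Figure D4:**
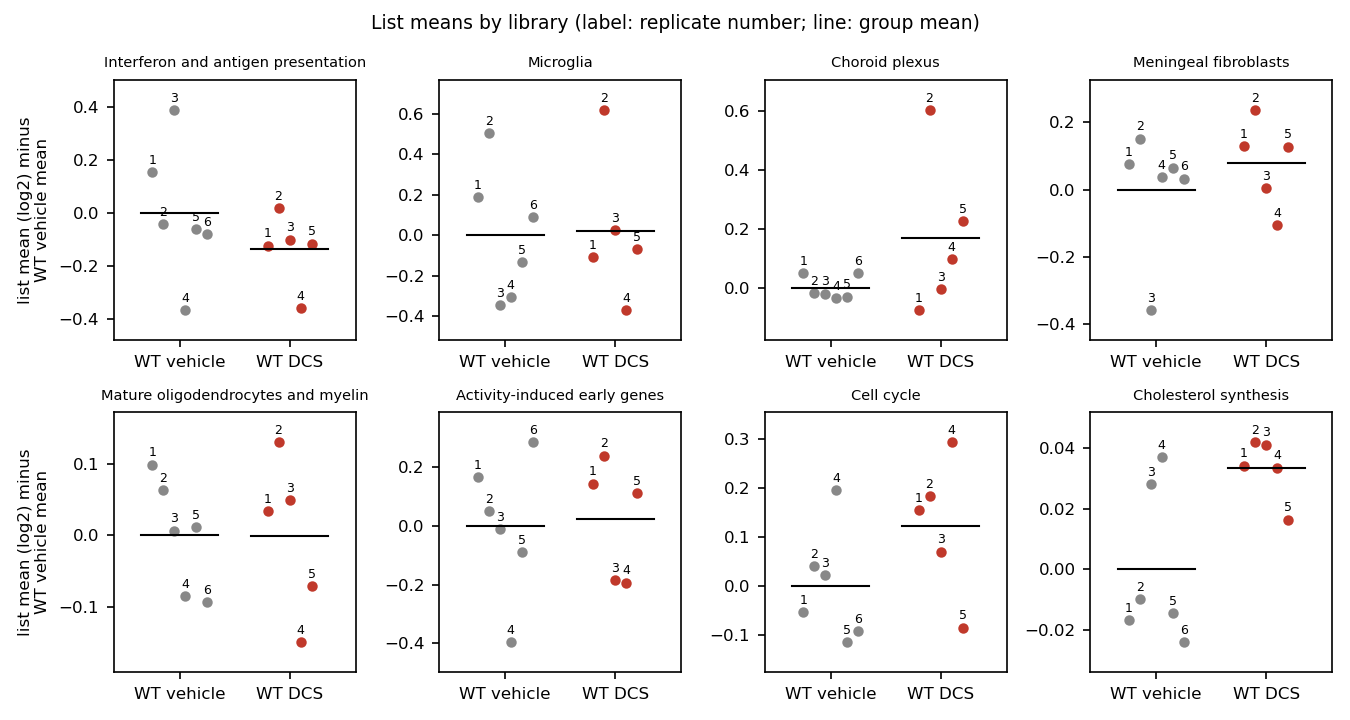
Mean log2 level of 8 gene lists in each WT library (points, labelled by replicate number) minus the WT vehicle mean of that list (y axis, log2; each panel has its own scale), with group means (lines), for vehicle (grey) and DCS (red). WT DCS 2 is the highest library for choroid plexus genes, both libraries numbered 2 are highest for microglial genes, and WT vehicle 3 is highest for interferon genes and lowest for meningeal genes.

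Cell cycle genes, which mark the few dividing cells left at this age, were higher in 19 of 24 cases, with a median of 0.12 and none at an unadjusted p below 0.05. Mcm3, a subunit of the replicative helicase, measured 75.5, 70.3, 100.2, 80.6 and 60.4 with DCS and 51.1 to 79.6 (median 56.5) with vehicle. Each of the DCS libraries was above the vehicle mean (log2 difference 0.37, 95% interval -0.047 to 0.79). Cenpf, a kinetochore protein, measured 46.9, 54.1, 51.9, 225 and 63.2 with DCS, and WT DCS 4 stood far above the other 4. Aurkb, the kinase of the chromosomal passenger complex, measured 19.99, 29.7, 19.9, 30.1 and 23.4 with DCS and 12.6 to 39.4 (median 15.3) with vehicle, where the highest library was a vehicle one. The list mean was highest in WT DCS 4, at 6.29, and the list's median was 0.053 without that library, 0.15 without WT DCS 5 and 0.13 without both libraries that stood apart (16 of 24 higher). In HT brain 16 of 24 were higher with DCS, with a median of 0.072.

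Messenger RNAs encoded in the mitochondrial genome had the lower mean in 10 of 13 cases with a median of -0.043, while the mean of the 13 log2 differences was -0.0089. mt-Nd1, a subunit of complex I, had 137400 ± 7577 against 144900 ± 5735 (log2 difference -0.078, 95% interval -0.17 to 0.014), and mt-Co1, a subunit of cytochrome oxidase, had 550800 ± 19500 against 575700 ± 28510 (log2 difference -0.063, 95% interval -0.14 to 0.015). WT DCS 1 and WT DCS 4 lay within the vehicle range of mt-Nd1, and the other 3 DCS libraries lay below it. mt-Nd6, another subunit of complex I, had the higher mean, 1559 ± 114 against 1446 ± 265, with all 5 DCS libraries above the vehicle mean. Without WT DCS 5 the list's median was -0.012. In HT brain 10 of the 13 genes had the higher mean with DCS, with a median of 0.052, and the difference between the genotypes passed the threshold for 0 of 13. mt-Co3 varied from 9030 to 74500 in both groups alike and gives no usable comparison, although it is counted among the 10 lower genes. The highest log2 difference of the 13 was 0.31. The values of these genes are uncertain because nuclear copies of the mitochondrial genome can take part of their reads.

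The 10 genes of smallest p in each direction included many scarce transcripts, and no shared theme was tested. Nrn1l (chr8:105893567-105895023, GRCm38), a relative of the neurite-growth protein neuritin, measured 2.35, 7.07, 4.96, 4.17 and 7.40 normalised reads with DCS and 8.02 to 17.2 (median 13.8) with vehicle. The groups did not overlap. The means were 5.19 ± 2.10 against 12.9 ± 3.55 (SD, n = 5 and 6), with a log2 difference of -1.21 (95% interval -1.72 to -0.69) on the log2(value + 1) scale, which understates the change of so scarce a transcript. HT means were 13.1 ± 2.48 and 14.6 ± 2.98 with DCS and vehicle, both near the WT vehicle mean, and the difference between the genotypes was -1.06 (95% interval -1.77 to -0.35) with a limma adjusted p of 0.984 (unadjusted p = 0.00489).

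Mapre1 (chr2:153741274-153773310) encodes EB1, which binds growing microtubule ends. It measured 4065, 3426, 3671, 4489 and 4275 with DCS and 4189 to 4963 (median 4775) with vehicle. All 5 DCS libraries lay below the vehicle mean, 3 of them below the whole vehicle range, with a log2 difference of -0.25 (95% interval -0.37 to -0.12). HT means were 4612 ± 344 and 4454 ± 252 with DCS and vehicle. Gckr (chr5:31297443-31327314), the inhibitor of glucokinase, measured 17.9, 20.8, 22.1, 16.5 and 17.5 with DCS and 24.6 to 49.6 (median 38.7) with vehicle. The groups did not overlap, and the order was the opposite in HT, where the means were 31.1 ± 6.15 and 26 ± 12.8.

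Of the other lower genes, Osmr, the receptor subunit for oncostatin M, measured 122, 135, 103, 130.4 and 132 with DCS and 153 to 234 (median 157) with vehicle, without overlap. Ppef1, a phosphatase with calcium-binding EF hands, measured 16.4, 15.1, 15.2, 19.8 and 17.8 with DCS and 23.8 to 48.6 (median 34) with vehicle, again without overlap. Acad11, an acyl-CoA dehydrogenase, had 901 ± 44.7 against 1022 ± 60.7, and Nelfe, a subunit of the complex that pauses RNA polymerase II, had 393 ± 34.8 against 477 ± 31.2. Pank2, the mitochondrial pantothenate kinase of coenzyme A synthesis, had 1451 ± 80.5 against 1587 ± 60.4. In each of these 3 genes the DCS libraries lay below the vehicle mean but overlapped its range. Gpr179, an orphan receptor known from retinal bipolar cells, had 32 ± 8.69 against 49.6 ± 11.2. Bambi-ps1 had 13 ± 4.47 against 22.7 ± 5.93, and as a processed pseudogene its reads may belong to its parent gene.

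On the higher side, Adamtsl2 (chr2:27079379-27108981), an extracellular matrix glycoprotein, measured 306, 351, 313, 357 and 329.9 with DCS and 215 to 307 (median 261) with vehicle. Only WT DCS 1 fell within the vehicle range, just under its top, and the log2 difference was 0.36 (95% interval 0.18 to 0.54) in WT and -0.049 in HT. Krt18 (chr15:102028180-102032027), a keratin of simple epithelia, measured 19.8, 23.9, 19.7, 17.1 and 15.4 with DCS and 5.63 to 13.3 (median 12.1) with vehicle. These groups did not overlap, and the WT vehicle mean of 10.7 was also below both HT means, 17.3 ± 3.17 and 19.5 ± 4.59. Shisal2b (chr13:104845283-104863893) measured 27.7, 25.2, 8.38, 23.3 and 22.3 with DCS and 2.63 to 15.8 (median 7.25) with vehicle, with WT DCS 3 the exception among the DCS libraries.

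The remaining higher genes had modest differences. Sapcd2, a regulator of spindle orientation, had 126 ± 9.35 against 93 ± 8.82 without overlap, and Trmt12, an enzyme of tRNA wybutosine synthesis, had 297 ± 15.7 against 248 ± 17.1 without overlap. Nat8, an acetyltransferase, had 20.4 ± 4.08 against 12.4 ± 1.42 without overlap. Tdrd1, known from the germline piRNA pathway, had 35.2 ± 7.91 against 22.5 ± 3.84, and Katnal2, a katanin-like microtubule-severing protein, had 105 ± 11.7 against 81.5 ± 12. The most abundant were Ptk2, the focal adhesion kinase, with 3533 ± 73.8 against 3250 ± 156 (log2 difference 0.12, 95% interval 0.044 to 0.20), and Sec16a, a scaffold of endoplasmic reticulum exit sites, with 2591 ± 97.2 against 2324 ± 161 (log2 difference 0.16, 95% interval 0.059 to 0.26). In every gene of this paragraph the WT vehicle mean was also below both HT means. With DCS and vehicle these HT means were 3591 ± 129.5 and 3584 ± 185.4 for Ptk2, and 119.6 ± 18.34 and 115.8 ± 23.4 for Sapcd2. Each of these 20 genes had a limma adjusted p of 1, except Nrn1l at 0.888.

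**Figure D5:**
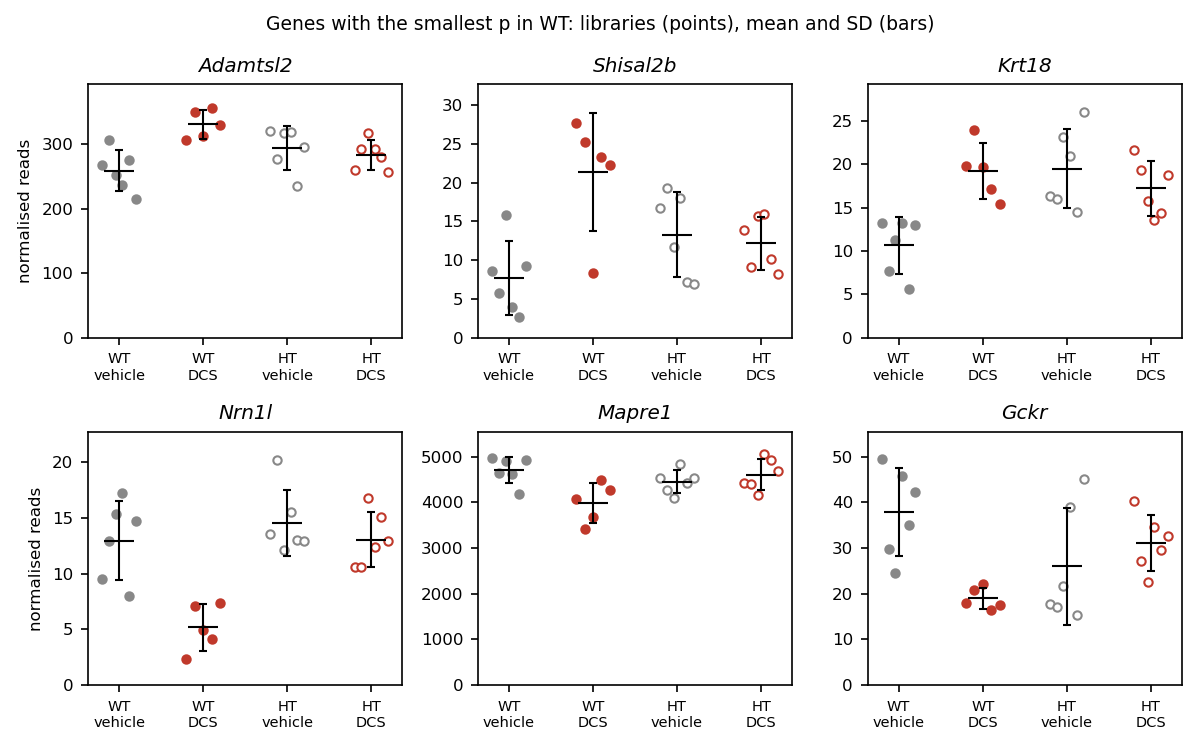
Normalised reads (y axis, from 0) of 6 genes among those with the smallest p in WT, in each library (points) of the 4 groups of the study, with mean and SD (bars); WT filled, HT open, vehicle grey, DCS red. In Krt18, Nrn1l and Gckr the WT DCS and WT vehicle libraries do not overlap, while the HT groups overlap in all 6 genes; no gene passed the threshold.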

How the data were processed

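Poly(A) RNA of mouse brain was sequenced from stranded TruSeq libraries, per the labels' protocols. The authors deposited 1 table of normalised signal, read counts scaled between libraries, for 18848 genes and 23 libraries; per the submitters' processing notes the tools were Salmon 1.1.0, R 3.6.2 and DESeq2 1.26.0 with build GRCm38, with their roles not given in the sources used here. These signal values are not raw counts, and the low values were whole multiples of a unit in only 60.08 to 78.79% of cases (within 0.15), so no count model was used. Depth before scaling was estimated from that same unit, at 29200000 (WT vehicle 2) to 37500000 reads (WT vehicle 4). These estimates are rough, because the unit fitted only part of the low values.

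Genes averaging 10 or more were tested on log2(value + 1) with limma 3.58.1 (R 4.3.3), 1 coefficient per group over all 23 libraries, moderated with a mean trend and robust settings, two-sided, with Benjamini-Hochberg adjustment over 17256 genes and a threshold of 0.05. The fit was also run on simulated data with independent noise for each gene. That simulation holds no effects shared by the genes of a library, so it does not show how the fit behaves with them. All 55 pairs of WT libraries differed. Libraries are numbered by their titles; WT DCS 5 carries number 6 in its description. The genes named are all NMDA receptor subunits, the 10 of smallest p in each direction (predicted models and the 16 identifiers without a symbol left out) and up to 4 members of smallest p per list described; other members were named for their role after their values were seen. Lists have no test, and a few of their members are not reported here. The members and lists were chosen with earlier results of these data known, and the 17 of 38 lists described were picked after seeing their values. Alternatives changed the pseudocount, filter, normalisation, moderation, replicate block, weights and libraries.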

Additional observations from a re-analysis of the deposited data

Results flagged for a closer look

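In 216 groups of WT libraries (91 named genes and 17 list means, in each treatment group), 23 values lay far from the other libraries of their group by Dixon's criterion at 95%, which chance passes in about 5% of groups. WT DCS 2 held the outlying value in 5 genes. It was high in Maff (53.78), Fcrls (473.6), Gpr34 (184.4) and Kcne2 (68.69), and low in Grin2a (5519). Fcrls, a microglial gene, was also high in WT vehicle 2, at 447.5 against 183 to 280.3 in the other vehicle libraries. WT vehicle 2 was further high in Mcm3 (79.63).

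Among the other DCS libraries, WT DCS 1 was high in Gabra2 (1677), Gadd45g (526.2) and Col1a1 (1524). WT DCS 3 was low in Shisal2b (8.382) and high in Grin3b (44.84). WT DCS 4 was high in Cenpf (225.1, where the next library had 63.2), and WT DCS 5 was high in Aldh1a2 (239.7).

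Among the other vehicle libraries, WT vehicle 3 was high in Irf1 (204.3, where the next library had 124.5) and had the lowest mean log2 level of meningeal fibroblast genes, 8.2946. WT vehicle 5 was high in Osmr (233.9) and Bcat2 (393.6) and had the highest mean log2 level of pyridoxal phosphate enzymes, 10.7008. WT vehicle 4 was high in Trmt12 (282.4) and Aurkb (39.43) and low in Gldc (551.3). WT vehicle 1 was low in Sapcd2 (75.44).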

How the results depend on the processing

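The count of genes past the threshold was 0 under each of 36 alternatives for WT DCS against WT vehicle and 35 for the difference between genotypes, and 0 to 0 when single libraries were left out. The smallest adjusted p was 0.29 without the mean trend and 0.286 for the difference between genotypes without HT DCS 4. Genes at an unadjusted p below 0.05 numbered 360 (mean of at least 50, fewer genes tested) to 629 (array weights), and 615 to 1138 for the difference between genotypes, the highest without HT vehicle 6. Whether replicate numbers pair the WT libraries was not settled: deviations of same-numbered libraries correlated at -0.07 to 0.30 over 5 numbers, those of 25 differently numbered pairs at -0.17 to 0.13, and 2 of 5 DCS libraries correlated best with their own number. With the replicate block, by title number or by description number, 0 genes passed.

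Of the 91 named genes 85 kept their sign under all 36 alternatives, and Grin1, Grin2d, Grin3a, Gpr34, Gabra5 and mt-Nd5 changed it in at least 1; none passed the threshold in any. Under no alternative was the median log2 difference of all genes larger than 0.0013 in size, whatever its sign. The choroid plexus median was 0.25 without WT DCS 1, 0.078 without WT DCS 2, 0.26 without WT DCS 3 and 0.0051 without both libraries numbered 2, an alternative chosen after seeing the data. Intervals were wider for scarce genes: with means under 100, 45.44% of intervals lay within 1.5-fold, against 99.65% with means of 1000 or more.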

Other observations

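The 21 lists not described above had medians between -0.17 (red cells) and 0.058 (hypothalamus), and no member of them passed the threshold. Of 18 astrocyte genes 10 were higher with DCS (median 0.0054), of 18 excitatory neuron genes 5 (-0.015), of 20 inhibitory neuron genes 11 (0.0003) and of 25 genes of vesicle release 15 (0.010). Of the vascular lists, 12 of 18 endothelial genes were lower (-0.012) and 10 of 13 pericyte and smooth muscle genes higher (0.054). By list mean, WT DCS 2 was the highest library in both. For endothelial genes 4 of 5 DCS libraries lay below the vehicle mean, and for pericyte and smooth muscle genes 3 of 5 did. No direction is therefore given for the pericyte and smooth muscle list. Stress programmes differed little, with 15 of 25 unfolded protein and integrated stress genes (0.017) and 11 of 16 heat shock chaperones (0.030) higher. Glucocorticoid-induced genes were lower in 11 of 17 cases (-0.015). Genes of fatty acid synthesis were higher in 12 of 16 cases (0.044), of oligodendrocyte precursors in 10 of 14 (0.018), of the cerebellum in 13 of 19 (0.014) and of the hypothalamus in 8 of 13 (0.058). Striatal genes were lower in 10 of 16 cases (-0.0084) and synaptic adhesion genes in 13 of 23 (-0.0033). The remaining 5 lists (hindbrain, circadian clock, immature neurons, sodium and calcium channels, trophic signalling) had medians between -0.025 and 0.015.

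Red cell transcripts varied between libraries of both groups. Hbb-bs, a beta globin, measured 7618, 4959, 6503, 3508 and 4379 with DCS and 4124 to 7698 (median 6215) with vehicle, and all 6 tested red cell genes had the lower mean with DCS. The list mean was highest in WT DCS 1 (10.17) and lowest in WT DCS 4 (8.97), so both extremes of the 11 libraries were DCS libraries.

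Some transcripts took either a high or a low value in both groups. mt-Co3, a subunit of cytochrome oxidase encoded at chrM:8607-9390, measured 72990, 14880, 10030, 16820 and 62230 in the DCS libraries and 12480, 9030, 74500, 53440, 13280 and 68310 in the vehicle libraries, with none between 16820 and 53440. Gm28437, an annotated pseudogene at chr1:24613189-24613971 (GRCm38), measured 151900, 200300, 193300, 190500 and 137100 and 202200, 214000, 150800, 151700, 192200 and 133900 in the same order, high where mt-Co3 was low. Their sum ranged from 199330 to 225300 over the 11 libraries and was 210010 ± 10174 with DCS (SD, n = 5) and 212640 ± 9886 with vehicle (SD, n = 6). These genes were chosen after their values were seen, and the division of reads between them was not tested.

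Gdf1 (chr8:70329817-70331587) had the lowest log2 difference of all genes, -4.17 (95% interval -8.49 to 0.15). It is listed at 0 in WT DCS 2, 3 and 5, at 153 and 189 in the other 2 DCS libraries, and at 84.3 to 244 (median 139.8) in the vehicle libraries. It lies within Cers1 (chr8:70315775-70331592) on the same strand, and Cers1, a ceramide synthase, had 3909 ± 121 against 3747 ± 157. How reads were divided between these overlapping genes is uncertain.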
